A study of Mus musculus with 6 samples.

Results

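The Schlafen (Slfn) genes of mouse chromosome 11 were examined in RNA sequencing libraries of CD11b-positive bone marrow cells. The 7 members, Slfn1, Slfn2, Slfn3, Slfn4, Slfn5, Slfn8 and Slfn9, were taken by symbol from the 54532 genes of the deposited table. All 7 were found, and all 7 were among the 10913 genes that reached 1 FPKM (fragments scaled to gene length and library size) in at least 3 libraries. The family was picked with the genotype difference of Slfn5 already known, so the differences between genotypes below are given as a description, with no test of the members.

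Schlafen proteins regulate growth, quiescence and antiviral defence in immune cells, and several of the genes are induced by type I interferon, which acts through a receptor, its kinases and transcription factors on promoter elements with repeated GAAA cores. Short members end after the Schlafen core domain, while long members carry an additional helicase-like domain. In mice, Slfn2 is needed for quiescence and survival of T cells and monocytes, Slfn1 slows the growth of thymocytes when it is overexpressed, and Slfn4 is a gene of myeloid cells that interferon and Toll-like receptor ligands induce.

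The libraries came from mice of 2 genotypes aged 12 weeks, 3 labelled Tshr-/- and 3 labelled Tshr+/+ (wild type), and the cells were selected from tibial marrow by CD11b, an integrin chain of neutrophils, monocytes and macrophages. Tshr is the gene of the thyrotropin receptor. Another label calls the mutants a knockdown, and a treatment label names osteoclast differentiation with no time given. The part of Tshr removed, the strain, and whether a library is 1 animal are not given in the labels beyond the numbering of mice in the titles, so spread between libraries is read as spread between animals only as far as that numbering goes.

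The libraries held between 14698126 and 17976477 fragments. Tshr itself had 0.414, 0.297 and 0.00825 FPKM in the libraries labelled Tshr-/-, from 40, 25 and 1 fragments, against 0.537, 0.552 and 0.405 FPKM in Tshr+/+, from 55, 55 and 45 fragments. The libraries labelled Tshr-/- 1 and 2 thus hold Tshr fragments, and differences of the members are also given without them where they move. Interferon genes, neighbours and similar patterns were not recomputed without these libraries. The label of the cells was checked by Itgam, the gene of CD11b, which lay between 87.4 and 134 FPKM in Tshr-/- and between 111 and 125 FPKM in Tshr+/+. These are bulk libraries, in which fewer cells of a type and less RNA per cell cannot be told apart.

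The cluster spans 263.8 kb of chromosome 11, from 82951349 to 83215154 in GRCm38, and the members fall into sizes of coding sequence. In GENCODE M21 the longest coding sequences are 1011 bases for Slfn1 and 1134 bases for Slfn2, 1806 bases for Slfn4 and 1920 bases for Slfn3, and 2652 bases for Slfn5 with 2730 bases each for Slfn8 and Slfn9. Slfn8 and Slfn9 are the closest pair, with 92.7% identical bases over 2730 aligned coding bases. Slfn3 and Slfn4 follow with 92.3% over 1785 bases, and every other pair of members lies at or below 75.3%.

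Upstream of each start site, 250 bases were searched on both strands for interferon-type motifs, with sequences from RefSeq (GRCm38.p6), in which all 7 members matched by symbol. The interferon response core, which is GAAA, any 2 bases and GAAA again, was found upstream of Slfn5, Slfn8 and Slfn9, the 3 long members, and in 2.98% of the 32851 windows of the table. The shorter core AANNGAAA, which lies within every interferon response core, was found upstream of all 7 members and in 21.3% of windows. The window of Slfn14, a long relative outside the members with 2697 coding bases, had neither core. The composite element of PU.1 and IRF, which is GGAA, any 2 bases and GAAA and so also contains AANNGAAA, was found upstream of Slfn2 and in 2.3% of windows, while TTCNNNGAA (7.02% of windows) and GAGGAAGT, a PU.1 element (2.44% of windows), were found upstream of none of the 7. A match is a match of letters and no measure of binding.

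The windows of the 3 long members are printed 5′ to 3′ on the strand of the gene, with the interferon response core or its reverse complement in capitals, because the match stands upstream of the member whose level differed most between the labels over the 6 libraries and of the 2 near copies. The window of Slfn4, the most abundant member, has AANNGAAA or its reverse complement in capitals. Slfn5 lies on the plus strand (chr11:82951852-82952101), Slfn8 on the minus strand (chr11:83020811-83021060), Slfn9 on the minus strand (chr11:82991831-82992080) and Slfn4 on the plus strand (chr11:83174936-83175185).
Slfn5: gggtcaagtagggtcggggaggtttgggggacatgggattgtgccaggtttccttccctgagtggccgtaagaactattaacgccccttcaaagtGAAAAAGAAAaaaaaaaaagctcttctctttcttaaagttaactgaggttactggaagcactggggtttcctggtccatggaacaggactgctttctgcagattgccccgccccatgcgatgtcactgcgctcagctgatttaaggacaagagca
Slfn8: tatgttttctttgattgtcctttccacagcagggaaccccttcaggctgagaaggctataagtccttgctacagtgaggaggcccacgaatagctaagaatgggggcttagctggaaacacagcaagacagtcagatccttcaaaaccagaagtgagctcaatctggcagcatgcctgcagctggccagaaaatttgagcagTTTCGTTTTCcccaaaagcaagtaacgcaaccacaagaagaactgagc
Slfn9: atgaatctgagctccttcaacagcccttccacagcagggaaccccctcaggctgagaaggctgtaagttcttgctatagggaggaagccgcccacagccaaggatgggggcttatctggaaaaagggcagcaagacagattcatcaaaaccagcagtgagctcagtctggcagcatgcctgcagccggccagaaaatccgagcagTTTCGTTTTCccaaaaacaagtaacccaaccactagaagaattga
Slfn4: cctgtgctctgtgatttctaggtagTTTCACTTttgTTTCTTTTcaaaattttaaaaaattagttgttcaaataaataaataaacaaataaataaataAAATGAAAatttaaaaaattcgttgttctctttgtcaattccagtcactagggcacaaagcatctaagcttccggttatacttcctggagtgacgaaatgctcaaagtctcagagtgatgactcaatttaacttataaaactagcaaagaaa

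The match begins at -155 in Slfn5, in the orientation of the gene, and at -48 in Slfn8 and -45 in Slfn9, both on the opposite strand. The RefSeq start of Slfn5 lies downstream of the GENCODE start, so its window falls inside the deposited gene model. A second RefSeq start of Slfn8 places the same match at -136. The windows of Slfn8 and Slfn9 share 206 of 242 aligned bases (85.1%), the match included. In Slfn4 the matches begin at -225 and -214 on the opposite strand and at -152 in the orientation of the gene.

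**Figure D1:**
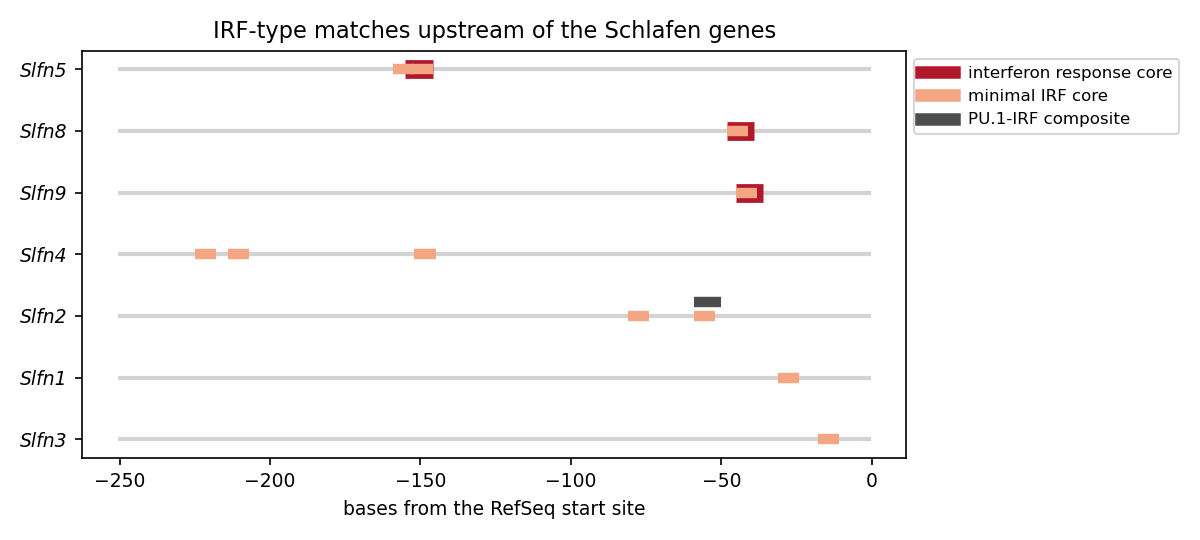
Matches of IRF-type motifs in the 250 bases upstream of the RefSeq start site of each Schlafen gene, by distance from the start in bases; boxes mark the matches on either strand and the Slfn8 row uses the first of its 2 starts. The interferon response core stands in the rows of Slfn5, Slfn8 and Slfn9, and the minimal core in all 7.

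Slfn4 was the most abundant Schlafen transcript in every library, at 486 ± 110 FPKM (mean ± SD over 6 libraries), followed by Slfn2 at 235 ± 49.0 FPKM and Slfn1 at 114 ± 27.6 FPKM. The other 4 were far lower. Slfn5 had 8.19 ± 2.93, Slfn8 4.34 ± 2.70, Slfn9 2.06 ± 1.40 and Slfn3 1.47 ± 0.239 FPKM. By these means, Slfn4 made up 57.1% of the summed FPKM of the family, Slfn2 27.6% and Slfn1 13.4%, and all 7 together took between 0.219% and 0.308% of the fragments in Tshr-/- and between 0.228% and 0.268% in Tshr+/+.

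The order from Slfn4 to Slfn2 to Slfn1 to Slfn5 held in 6 of 6 libraries at each step, with means more than their summed SDs apart. Slfn5 was above Slfn8 in 6 of 6 libraries, but their means were closer than their summed SDs. Slfn8 exceeded Slfn9 in 5 of 6 libraries and Slfn9 exceeded Slfn3 in 4 of 6, and these neighbours did not differ beyond their spread. Their relatives outside the members were barely covered: the pseudogene Slfn10-ps lay between 0.151 and 0.326 FPKM, Slfnl1 on chromosome 4 between 0.0307 and 0.113 FPKM, and Slfn14, known from platelets and red cell precursors, between 0 and 0.0962 FPKM from at most 5 fragments. The count of 0 for Slfn14, in Tshr+/+ 1, allows up to 0.0475 FPKM (3 fragments, counting error only).

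**Figure D2:**
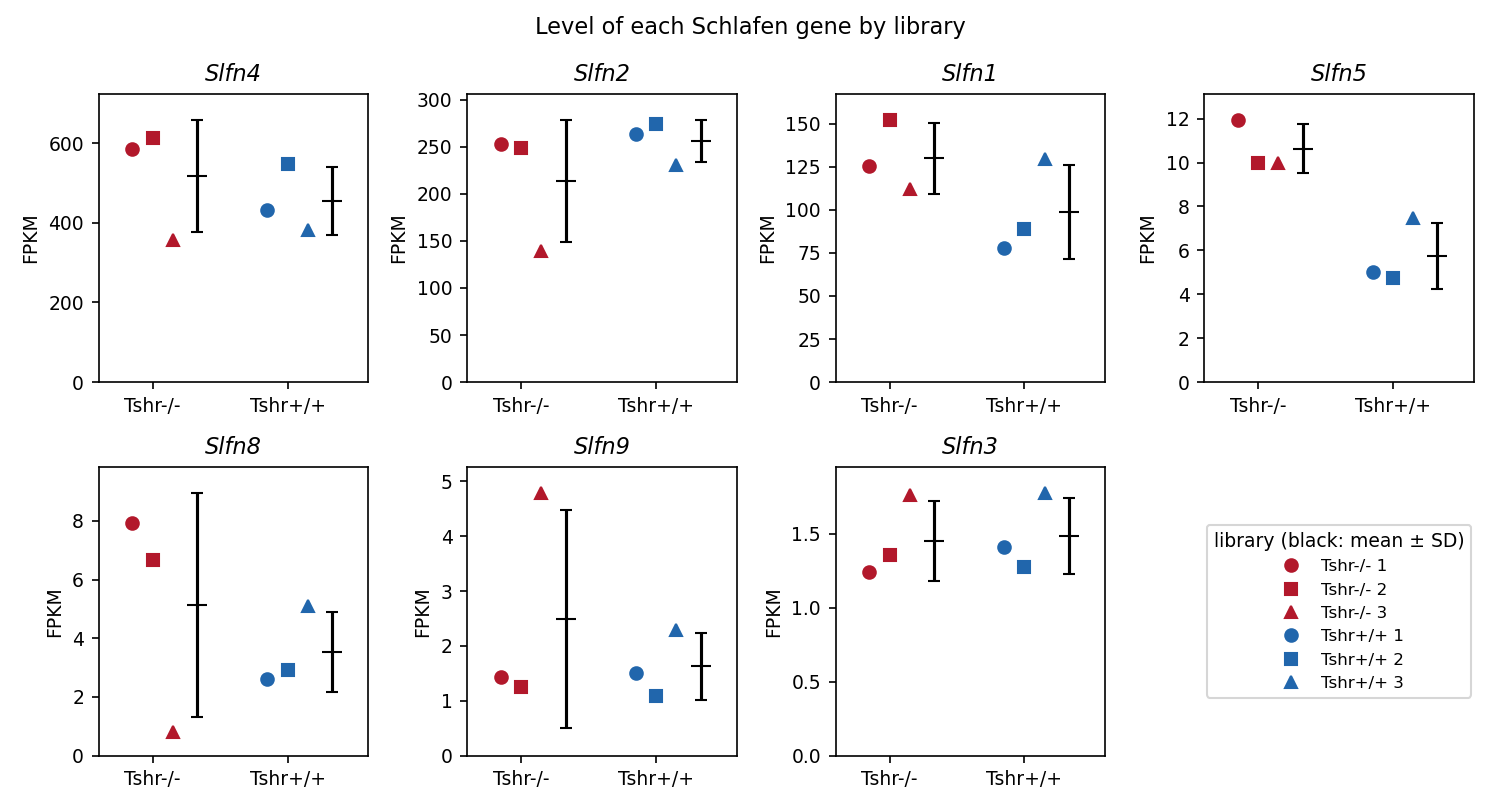
FPKM of each Schlafen gene in each library, with a linear axis from 0 per panel, coloured points for libraries and black bars for mean ± SD of 3 libraries. Slfn5 is the panel in which all 3 Tshr-/- points (9.98 to 11.9 FPKM) lie above all 3 Tshr+/+ points (4.75 to 7.50 FPKM).

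Over all 6 libraries, Slfn5 was the member whose level differed most between the labels. Slfn5 (ENSMUSG00000054404, chromosome 11, 82951349 to 82964840, plus strand), a long member whose human counterpart is an interferon-induced nuclear protein, had 11.9, 9.98 and 9.99 FPKM in the libraries labelled Tshr-/-, against 5.01, 4.75 and 7.50 FPKM in Tshr+/+. The groups did not overlap, and the values came from between 498 and 1273 fragments a library. The libraries labelled Tshr-/- averaged 10.6 ± 1.14 FPKM, against 5.75 ± 1.51 FPKM for Tshr+/+ (SD, n = 3 each), a ratio of 1.85. On the log2(FPKM + 1) scale, on which differences are given from here on and which understates changes of low genes, the difference was 0.80 ± 0.17 (SE), and it lay between 0.70 and 1.07 under every alternative tried. It was 0.72 without the libraries labelled Tshr-/- 1 and 2, where the differences of Slfn8 (-1.29), Slfn9 (1.16) and Slfn2 (-0.87) were larger in size. The difference of Slfn8 also exceeded it without the library labelled Tshr-/- 3 (0.91 for Slfn8 and 0.84 for Slfn5) and without both libraries numbered 3 (1.14 for Slfn8 and 1.02 for Slfn5). The antisense gene Slfn5os, which overlaps Slfn5, was listed at 0 in all 6 libraries, and Slfn5 shared no run of 50 bases with transcripts of the other cluster genes compared.

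Relative to the Tshr+/+ mean, Slfn8 and Slfn9, the near copies, ran opposite to each other in the 3 libraries labelled Tshr-/-. Both were far from that mean only in the library labelled Tshr-/- 3, since Slfn9 in those labelled Tshr-/- 1 and 2 lay within the range of Tshr+/+. Slfn8 (ENSMUSG00000035208, chromosome 11, 83002158 to 83020810, minus strand) had 7.95, 6.66 and 0.801 FPKM in Tshr-/-, against 2.60, 2.92 and 5.11 FPKM in Tshr+/+. Slfn9 (ENSMUSG00000069793, chromosome 11, 82978390 to 82991830, minus strand) had 1.43, 1.26 and 4.78 FPKM in Tshr-/-, against 1.52, 1.08 and 2.28 FPKM in Tshr+/+. The library labelled Tshr-/- 3 thus held the lowest Slfn8 and the highest Slfn9 of all 6, while the libraries labelled Tshr-/- 1 and 2 held the highest Slfn8. Tshr+/+ 3 was the highest of its group for both genes.

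The ratio of Slfn8 to Slfn9, both in FPKM, differed between libraries. It was 5.57 (exact 95% binomial interval 4.60 to 6.77), 5.30 (4.26 to 6.65) and 0.167 (0.128 to 0.216) in the libraries labelled Tshr-/- 1, 2 and 3, and 1.71 (1.37 to 2.14), 2.70 (2.12 to 3.45) and 2.24 (1.91 to 2.63) in Tshr+/+ 1, 2 and 3. The intervals of the libraries labelled Tshr-/- 1 and 2 lay above, and that of Tshr-/- 3 below, all 3 intervals of Tshr+/+. These intervals, which cover counting error only, rest on 66 fragments of Slfn8 and 575 of Slfn9 in the library labelled Tshr-/- 3. The sum of both genes was less uneven, at 9.37, 7.91 and 5.58 FPKM in Tshr-/- and 4.11, 4.004 and 7.40 FPKM in Tshr+/+. That library is also the one with a single Tshr fragment.

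**Figure D3:**
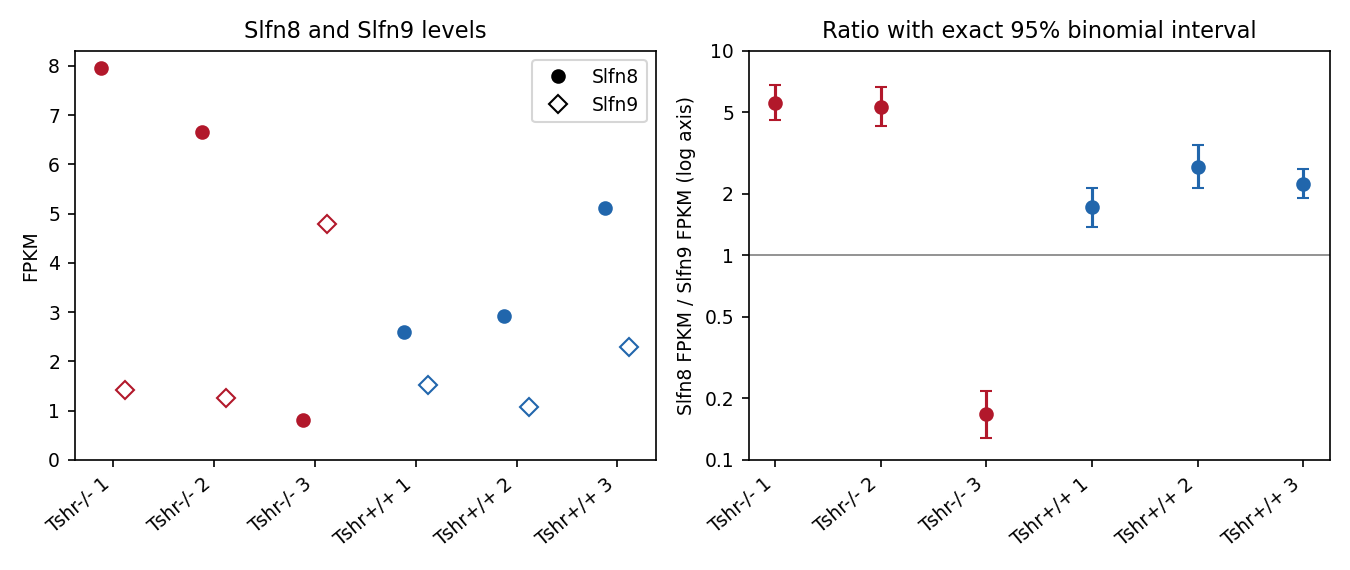
Left, FPKM of Slfn8 (filled circles) and Slfn9 (open diamonds) in each library; right, their ratio on a log axis with its exact 95% binomial interval. The library labelled Tshr-/- 3 alone lies below a ratio of 1, at 0.167.

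The difference of means of Slfn8 was 0.17 ± 0.60 (SE) and that of Slfn9 0.29 ± 0.38 (SE), so neither exceeded its error. Without the library labelled Tshr-/- 3 that of Slfn8 was 0.91 and that of Slfn9 was -0.14, and without the libraries labelled Tshr-/- 1 and 2 they were -1.29 and 1.16. Leaving out each library in turn gave -0.25 to 0.91 for Slfn8 and -0.14 to 0.54 for Slfn9. Fragments of close copies can be assigned to either. In GENCODE M21, 14.6% of the distinct runs of 50 bases in Slfn8 transcripts and 11.2% of those in Slfn9 also occur in another gene of the cluster, all of them in each other or in Slfn10-ps, and for runs of 100 bases the shares are 3.38% and 3.71%. The treatment of such fragments, like the read length, was not given in the sources used here. Their part in the levels of Slfn8 and Slfn9 was not tested.

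Among the abundant members, Slfn4 (ENSMUSG00000000204, chromosome 11, 83175186 to 83190216, plus strand) had 584, 613 and 356 FPKM in Tshr-/-, against 433, 549 and 382 FPKM in Tshr+/+. The groups overlapped, with means of 518 ± 141 FPKM for Tshr-/- and 455 ± 85.4 FPKM for Tshr+/+ (SD, n = 3 each), and both libraries numbered 3 were the lowest of their group. The summed level of neutrophil markers, 10 of 10 tested and none at 0, was lowest of each group in the same libraries. It was 131074, 144356 and 92883 FPKM in Tshr-/-, against 122345, 140054 and 115552 FPKM in Tshr+/+, with S100a9 the most abundant. Single markers did not all follow the sum. In Tshr+/+ 3, S100a8, Camp, Retnlg and Mmp9 were not the lowest of their group, and Ly6g (416 FPKM) and Cxcr2 (139 FPKM) were the highest. In Tshr-/- 3, Cxcr2 (116 FPKM) was above Tshr-/- 1 (97.8 FPKM). The part of neutrophils in the level of Slfn4 was not tested. The difference of means of Slfn4 was 0.16 ± 0.25 (SE). It lay between 0.022 and 0.41 with each library left out in turn, and was -0.33 without the libraries labelled Tshr-/- 1 and 2.

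Slfn2 (ENSMUSG00000072620, chromosome 11, 83065112 to 83070678, plus strand) was even across 5 libraries and low in the other. It had 253, 249 and 139 FPKM in Tshr-/-, against 263, 274 and 231 FPKM in Tshr+/+. The difference of means was -0.31 ± 0.24 (SE), and it was -0.03 without the library labelled Tshr-/- 3 and -0.87 without those labelled Tshr-/- 1 and 2. The library labelled Tshr-/- 3 alone lay below 230.8 FPKM. For each of the 3 numbers, the Tshr-/- library was below the Tshr+/+ library of the same number. The antisense gene Gm20234, which overlaps Slfn2, followed the same pattern, with 5.46, 6.07 and 1.38 FPKM in Tshr-/- and 5.16, 5.39 and 4.37 FPKM in Tshr+/+. Whether the authors counted by strand is not stated in those sources, so fragments of the pair cannot be told apart.

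Slfn1 (ENSMUSG00000078763, chromosome 11, 83116849 to 83122670, plus strand) had 125, 152 and 112 FPKM in Tshr-/-, against 77.6, 88.7 and 130 FPKM in Tshr+/+. Its 2 lowest libraries were Tshr+/+ 1 and 2, while Tshr+/+ 3 lay within the range of Tshr-/-. Tshr-/- averaged 130 ± 20.5 FPKM, against 98.6 ± 27.4 FPKM for Tshr+/+ (SD, n = 3 each), a difference of 0.42 ± 0.21 (SE). It was 0.22 without the libraries labelled Tshr-/- 1 and 2, 0.26 without Tshr+/+ 1 and 0.63 without Tshr+/+ 3. Leaving out both libraries numbered 3 gave 0.73. Slfn1 is also known from T cells. Of 14 T and NK cell markers 5 reached the filter, and the list summed to 111, 84.9 and 98.8 FPKM in Tshr-/-, against 71.9, 72.7 and 86.0 FPKM in Tshr+/+, of which Nkg7, a gene of cytotoxic granules, gave 85.4, 69.0 and 73.5 FPKM in Tshr-/-, against 57.4, 55.2 and 72.5 FPKM in Tshr+/+. Of the T cell receptor complex genes, Cd3d averaged 2.23 FPKM in Tshr-/- and 2.18 FPKM in Tshr+/+, Cd3g 0.0718 FPKM in Tshr-/- and 0.0177 FPKM in Tshr+/+, and Cd3e 0.00583 FPKM in Tshr-/- and 0.0196 FPKM in Tshr+/+. Of the 5 markers that reached the filter, 1 lay without overlap above Tshr+/+ and 0 below, against 3.23% and 3.55% of all genes tested. It was the granzyme gene Gzma, which averaged 7.66 FPKM in Tshr-/- and 4.30 FPKM in Tshr+/+. Among markers under the filter, Cd3g and the killer cell receptor gene Klrb1c also lay without overlap above. The others under it overlapped, with Lck, Ncr1 and Trbc2 higher on average in Tshr-/- and Cd4, Trac, Cd8a and Cd3e lower. The part of these cells in the level of Slfn1 was not tested.

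Slfn3 (ENSMUSG00000018986, chromosome 11, 83191330 to 83215154, plus strand), known from differentiation of rodent gut epithelium, was the lowest member. It had 1.24, 1.36 and 1.76 FPKM in Tshr-/-, against 1.41, 1.27 and 1.78 FPKM in Tshr+/+, from 65 to 121 fragments. Both libraries numbered 3 were the highest of their group, the reverse of Slfn4 next to it. The difference of means was -0.02 ± 0.15 (SE), and 0.16 without the libraries labelled Tshr-/- 1 and 2. Of its runs of 50 bases, 12.3% occur in Slfn4 or Slfn1 or in the pseudogene Gm11427, which lies outside the cluster. Slfn4 is far more abundant, and the part of such fragments in the level of Slfn3 was not tested.

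Over the family, 5 of 7 members had a higher and 2 a lower mean in the libraries labelled Tshr-/-, where 47.1% of all genes tested were higher. The median difference was 0.17 over the 7 members and -0.01 over all 10913 genes. Without the library labelled Tshr-/- 3 the median of the members was 0.41, and without Tshr+/+ 3 it was also 0.41. Without overlap between the groups, 1 of 7 members lay higher (Slfn5) and 0 lower, against 3.23% and 3.55% of all genes. By library, the median of the members relative to the Tshr+/+ mean was 0.38, 0.45 and 0.16 in Tshr-/-, and -0.05, -0.12 and 0.35 in Tshr+/+, so that Tshr+/+ 3 lay among the Tshr-/- libraries. The summed FPKM of the family was 985, 1034 and 625 in Tshr-/-, against 785, 922 and 759 in Tshr+/+.

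**Figure D4:**
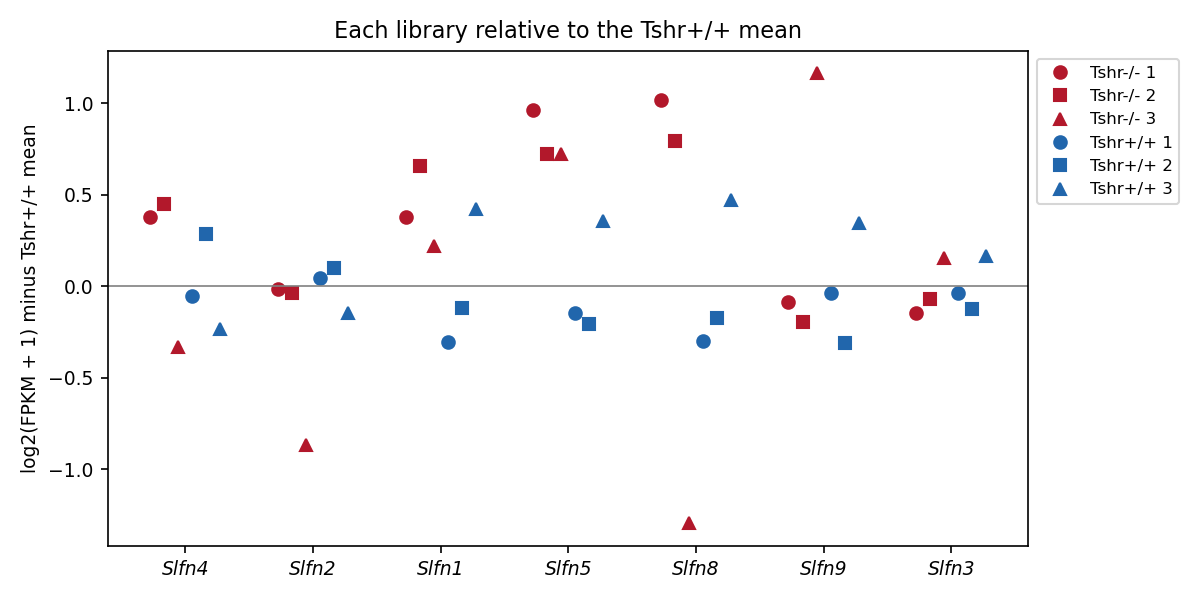
log2(FPKM + 1) of each Schlafen gene in each library minus the Tshr+/+ mean of that gene, with members in order of level. Slfn5 lies between 0.72 and 0.96 in the 3 Tshr-/- libraries, while in the library labelled Tshr-/- 3 Slfn8 lies at -1.29 and Slfn9 at 1.16.

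Across all genes no difference passed. With limma's Benjamini-Hochberg adjusted p and a threshold of 0.05, 0 of 10913 genes (0%) were called higher and 0 (0%) lower, the lowest adjusted p being 0.566; 156 were higher and 161 lower at an unadjusted p under 0.05, or 2.9%. The voom method on whole fragments also called 0 of 13709 genes, with 201 higher and 172 lower at an unadjusted p under 0.05. Without the library labelled Tshr-/- 3, 2 genes were higher (BC002163 and Gm3375, named after their values were seen). With array weights 24 genes passed. The libraries labelled Tshr-/- 1 and Tshr+/+ 2 had weights of 3.82 and 3.15, and the other 4 had weights of 0.247 to 1.25.

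Genes of the interferon pathway gave these values in the same libraries. Of 37 tested interferon-induced effectors, 36 had a higher and 1 a lower mean in Tshr-/-, with a median difference of 0.46 against -0.01 over all genes, and 15 lay without overlap above Tshr+/+, where 3.23% of all genes did; 0 passed the threshold in either direction (lowest limma adjusted p 0.9997). The list was drawn up with these differences known, and its values were not recomputed without the libraries labelled Tshr-/- 1 and 2. The largest difference in size was that of Ifi44l, the 1 tested effector that ran the other way. Ifi44l was listed at 0, 0 and 6.56 FPKM in Tshr-/-, against 2.39, 2.5005 and 6.37 FPKM in Tshr+/+, a difference of -1.18 ± 0.80 (SE). Its groups overlapped, and both libraries numbered 3 were the highest. Ifi44, under the filter and named after its values were seen, ran the same way as Ifi44l. It had 0.274, 0.105 and 2.65 FPKM in Tshr-/-, against 0.891, 0.916 and 1.67 FPKM in Tshr+/+. Next in size among the tested effectors was Ifit1, which encodes a binder of viral RNA, with a difference of 0.94 ± 0.27 (SE). Ifit1 had 9.88, 9.85 and 5.01 FPKM in Tshr-/-, against 2.83, 3.61 and 4.68 FPKM in Tshr+/+. Rsad2, the antiviral enzyme viperin, which was picked after its values were seen, had 34.8, 31.8 and 14.9 FPKM in Tshr-/-, against 14.0, 15.4 and 12.5 FPKM in Tshr+/+. In Ifit1 and Rsad2, as in Slfn8, the libraries labelled Tshr-/- 1 and 2 were the highest of the 6. The library labelled Tshr-/- 3 stood under them in both, while for Slfn5 it had 9.99 FPKM beside 9.98 FPKM in the library labelled Tshr-/- 2. The most abundant effector, Oas3, a sensor of double-stranded RNA, averaged 49.1 ± 9.98 FPKM in Tshr-/-, against 35.5 ± 7.30 FPKM in Tshr+/+ (SD, n = 3 each).

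The receptors, kinases and factors of interferon signalling had a median nearer to that of all genes. Of 20 tested, 14 had a higher and 6 a lower mean in Tshr-/-, with a median difference of 0.05, and 0 passed. Usp18, an inhibitor of the receptor that interferon itself induces, had 4.46, 5.21 and 4.30 FPKM in Tshr-/-, against 1.47, 1.64 and 4.77 FPKM in Tshr+/+. As in Slfn1, Tshr+/+ 1 and 2 were the lowest libraries and Tshr+/+ 3 lay with those labelled Tshr-/-. Ifnar2, a chain of the type I interferon receptor, ran the other way, with 21.98, 21.98 and 17.9 FPKM in Tshr-/-, against 35.0, 33.2 and 18.4 FPKM in Tshr+/+, a difference of -0.42 ± 0.25 (SE). Here Tshr+/+ 1 and 2 were the highest, and Tshr+/+ 3 again lay within the range of Tshr-/-. The most abundant of the list, the interferon gamma receptor chain Ifngr1, averaged 70.1 ± 10.5 FPKM in Tshr-/- and 74.5 ± 9.58 FPKM in Tshr+/+.

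Genes around the cluster were set beside the members. Within 500 kb of the outermost members, 20 other genes averaged at least 1 FPKM, of which 11 had a higher and 9 a lower mean in Tshr-/-, with differences between -0.32 and 0.47 and a median of 0.05. Rad51d, a DNA repair gene before the Slfn5 end, had 4.47, 5.26 and 4.17 FPKM in Tshr-/-, against 3.30, 3.46 and 4.13 FPKM in Tshr+/+, and was 1 of 20 without overlap above. Zfp830, with 16.6, 14.9 and 16.3 FPKM in Tshr-/-, against 20.8, 19.3 and 17.4 FPKM in Tshr+/+, was 1 of 20 without overlap below. Of all genes tested, 3.23% lay without overlap above and 3.55% below, so 1 of 20 is near those shares. Beyond the Slfn3 end, the pseudogene Gm11427 had 1.28, 1.16 and 2.90 FPKM in Tshr-/-, against 1.15, 1.14 and 2.39 FPKM in Tshr+/+, high in both libraries numbered 3 as Slfn9 and Slfn3 were.

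**Figure D5:**
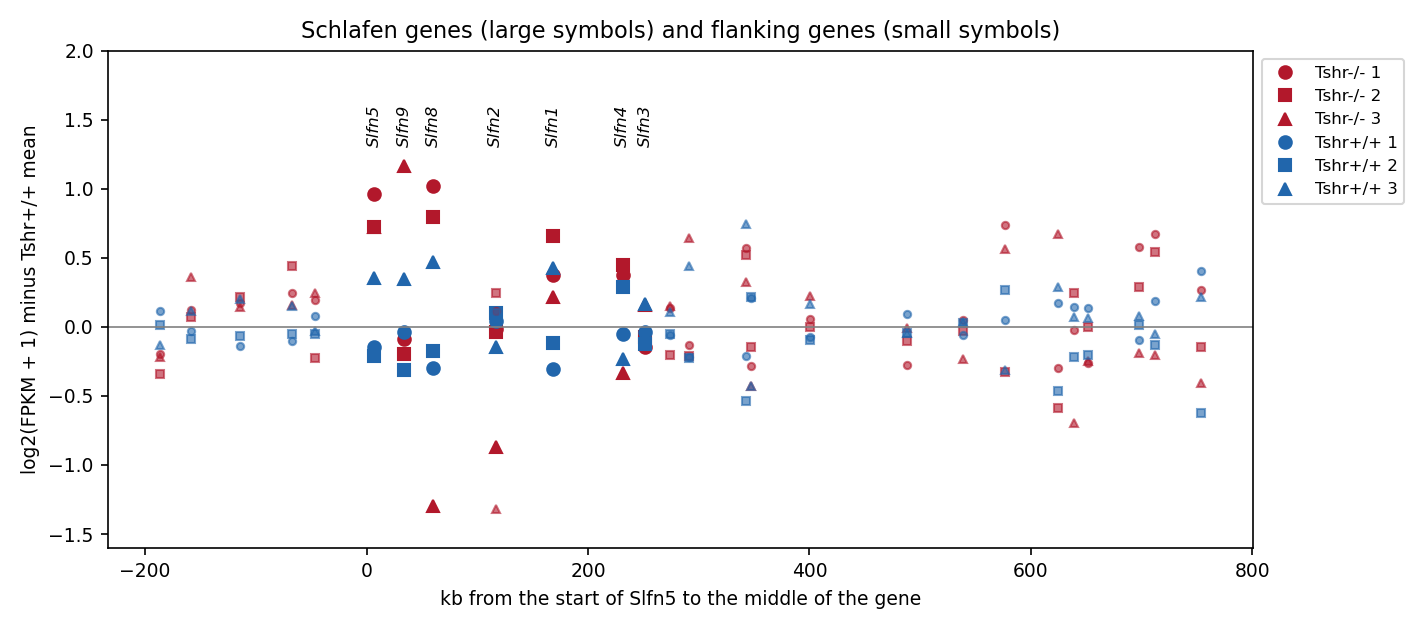
log2(FPKM + 1) minus the Tshr+/+ mean for genes of at least 1 FPKM along the cluster, by distance in kb from the start of Slfn5 to the middle of the gene; large symbols are the 7 members and small symbols the 20 other genes. The lowest points of the members, Slfn8 and Slfn2, belong to the library labelled Tshr-/- 3, as does the low small symbol of Gm20234 beside Slfn2.

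The genes whose pattern over the 6 libraries was most like that of Slfn5 were Hps1 (r = 0.994), Colgalt1 (r = 0.984), Atp8b4 (r = 0.981), Acap2 (r = 0.977) and Trim30a (r = 0.972), an interferon-induced ubiquitin ligase gene. These are the highest Pearson correlations of log2(FPKM + 1) among 5676 tested genes that averaged at least 5 FPKM. The members and symbols of predicted gene models (Gm number, Rik and similar) were left out. Of the 5676 genes, 13 reached 0.95, and the correlations are given as a description. Most like the mean of the members were Prss34 (r = 0.992), Taf12 (r = 0.991), Mcpt8 (r = 0.989), Zranb2 (r = 0.982) and Ada (r = 0.974), with 10 genes at 0.95 or above. Prss34 and Mcpt8 encode proteases of basophils; Mcpt8 had 45.8, 49.95 and 26.8 FPKM in Tshr-/-, against 21.8, 22.4 and 37.0 FPKM in Tshr+/+. The part of basophils in the Schlafen levels was not tested.

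Markers of other cells that a CD11b selection could hold gave these summed ranges. A sum weighs most the abundant genes of its list, and in every list the tested genes ran both ways. Log2 means were higher in Tshr-/- for 6 monocyte markers and lower for 2. These counts were 1 and 7 for macrophage, 1 and 4 for B and plasma cell, and 4 and 1 for erythroid markers. They were 1 and 3 for dendritic cell markers, and 3 and 2 for megakaryocyte and platelet markers. Monocyte markers (8 of 8 tested) lay between 554 and 698 FPKM in Tshr-/- and between 534 and 620 FPKM in Tshr+/+, and macrophage markers (8 of 8) between 83.3 and 129 FPKM in Tshr-/- and between 102 and 133 FPKM in Tshr+/+. B and plasma cell markers (5 of 10) lay between 261 and 456 FPKM in Tshr-/- and between 393 and 693 FPKM in Tshr+/+. Most of this sum was Igkc, which averaged 268 FPKM in Tshr-/- and 478 FPKM in Tshr+/+. Ighm, the 1 tested marker that ran the other way, averaged 86.8 FPKM in Tshr-/- and 60.9 FPKM in Tshr+/+. Erythroid markers (5 of 10) lay between 105 and 173 FPKM in Tshr-/- and between 63.4 and 150.001 FPKM in Tshr+/+. Dendritic cell markers (4 of 8) lay between 209 and 347 FPKM in Tshr-/- and between 249 and 381 FPKM in Tshr+/+. Megakaryocyte and platelet markers (5 of 8, with Gp1bb at 0 in all libraries) lay between 23.6 and 37.8 FPKM in Tshr-/- and between 23.6 and 30.6 FPKM in Tshr+/+. Their part in the Schlafen levels was not tested.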

How the data were processed

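The deposited table gives FPKM made by the authors for 54532 genes in 6 libraries; the columns headed HO were read as Tshr-/- and those headed WT as Tshr+/+, with numbers as in the titles. GRCm38 and mm10 appear as builds per the submitters' processing notes, with aligner, counting tool and use of strand not given in the sources used here. The positions of all 7 members equal those of GENCODE M21. FPKM times gene length, divided by the worth of 1 fragment in that library, came out whole (tolerance 0.01) for 100% of values, which gave fragments; 1 fragment of a 1 kb gene is worth 0.0496 to 0.0713 FPKM. Library sizes behind the FPKM equal those of median-of-ratios scaling, so values carry a scaling already.

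Genes of at least 1 FPKM in at least 3 libraries were compared on log2(FPKM + 1) with limma 3.58.1 in R 4.3.3. The fit used a variance trend, two-sided p-values, Benjamini-Hochberg adjustment and a threshold of 0.05. It was first run on simulated counts with the same set spread for every gene. That run does not measure how well the fit finds changes in these libraries. P-values measure the spread between libraries. Alternatives were other pseudocounts, filters and scalings, array weights, voom on fragments, the replicate block and each library left out; leaving out both libraries numbered 3, or those labelled Tshr-/- 1 and 2, was chosen after seeing the data. Errors of differences are limma's SE. Deviations from the group mean correlated at 0.24, 0.26 and 0.47 between same-numbered libraries, and at -0.48 to 0.34 between the others. Tshr-/- 1 was closer to Tshr+/+ 2 (0.34) than to Tshr+/+ 1 (0.24). Deviations within a group are tied to each other, so these values cannot settle whether the number pairs libraries. The replicate block is therefore an alternative only. Coding identity was computed with Biopython 1.88, figures with matplotlib 3.10.9. Members, gene lists, tests and the naming rule (all members and relatives, the 5 genes of most similar pattern, per list the 2 largest differences in size and the most abundant, and neighbours within 500 kb) were chosen with earlier results of these data known. Other genes named, the T and NK cell genes, Rsad2, Slfn5os and Itgam among them, were picked to describe a member or the cells. Binomial intervals are Clopper-Pearson and cover counting error only.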

Additional observations from a re-analysis of the deposited data

How the results depend on the processing

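The counts of genes past the threshold, 0 higher and 0 lower, moved with array weights (13 higher and 11 lower) and without both libraries numbered 3 (13 higher and 11 lower, an alternative chosen after seeing the data); these sets of 24 genes shared 3. Leaving out each library in turn gave 0 to 2 higher and 0 lower genes. The family's median difference of 0.17 ranged from 0.022 to 0.41 over these omissions, highest without the library labelled Tshr-/- 3 (0.41) and Tshr+/+ 3 (0.41). It kept its sign in all 16 alternatives. Among these, the replicate block (pairing by number) and the restriction to tested members could not move it. Both groups hold the same numbers, so the block leaves every difference of means unchanged, those of single members included. All members were tested, so that restriction changes nothing. In the fit with the replicate block the median of 0.17 was thus fixed in advance. Both counts were 0 in that fit, and no call changed. The sign of the difference turned in 5 of 15 alternatives for Slfn3, 4 for Slfn8 (-0.08 with voom), 1 for Slfn4 and 1 for Slfn9, and in none for Slfn1, Slfn2 and Slfn5. The cause was not tested. Rescaling to equal totals moved the median of all genes from -0.01 to 0.02. Among the members, the lowest counts in a library were 65 fragments for Slfn3 and 66 for Slfn8. The 66 fragments of Slfn8 were in the library labelled Tshr-/- 3, which held the most fragments in all (17976477).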
